A study of Homo sapiens with 6 samples.

Results

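Among the genes that differed between lung adenocarcinoma (LUAD) cells with and without HER2 S310F were 7 genes linked to the acute-phase response and to innate immune signaling. They were the serum amyloid A genes SAA1, SAA2 and SAA4, the chemokine genes CX3CL1 and CCL2, and the receptor genes CD14 and OLR1, and they made up 7 of the 107 genes in the deposited table. The 7 were picked by name from that table, which the authors had restricted to genes differing between the same groups of samples. All 7 were listed as lower in S310F cells, so the direction and size of each difference are given as a description. Calls by the fit are counted below, but they rest on the contrast that chose the genes, and no p-value is given for any of the 7.

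RNA was sequenced from H1975, a human LUAD cell line with a mutated EGFR gene, in 2 groups of 3 samples. EV cells carried an empty vector. S310F cells stably expressed HA-tagged HER2 with the S310F substitution, delivered by lentivirus and selected with puromycin. Both groups were grown in RPMI 1640 medium with fetal bovine serum, and neither the labels nor the methods give a drug treatment of the sequenced cells. Both vectors were of the pCDH type, named with a CMV promoter ahead of the cloning site and an EF1 promoter with the puromycin marker. Whether the cells were a pool or 1 clone was not given, and no sample with wild-type HER2 was included. The labels number the samples of a group 1 to 3 without saying that they were separate cultures. The methods speak of independent experiments for the study's data in general, without naming the cultures behind the sequenced samples, so the spread between them may be technical.

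Serum amyloid A proteins are small apolipoproteins of high-density lipoprotein that the liver releases in the acute-phase response. Epithelial and tumor cells also make them when interleukin-1, interleukin-6 or tumor necrosis factor act through NF-κB, STAT3 and C/EBP transcription factors. The same signals induce many chemokines, which attract leukocytes, and genes for surface receptors that recognize microbial or altered host molecules.

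Values below are as deposited, that is, reads of a gene corrected by the authors for library size with 1 factor per sample. Because every value was a whole multiple of 1 step per sample, the reads behind it could be counted, 1 read being worth 0.919 to 1.09 across the 6 samples. Library totals are unknown, since the table holds selected genes only. ERBB2, the gene that encodes HER2, had values of 847, 857 and 760 in EV cells and 15074, 13753 and 16366 in S310F cells, so every sample matched its label. Reads of the transgene and of the cells' own ERBB2 were not separated. None of 16 leukocyte markers and none of 15 lung epithelial markers was among the 107 genes, so the labelled cell type was not checked against them here. In bulk RNA, fewer cells of a type and less RNA per cell cannot be told apart.

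S310F replicate 3 stood apart from the other S310F samples. Of the 107 genes, 85 had their value nearest to the EV mean in that sample, and these included 32 of the 41 genes listed as higher. Its ERBB2 value was the highest of the 3 S310F samples. Differences, levels, SAA1 shares and similar profiles are therefore also given without this sample. For the differences, leaving out each sample in turn was planned. Giving the fit without replicate 3 for every gene followed from the values above. For levels, shares and profiles leaving it out was chosen after the data were seen. The median log2 difference of the 7 was -1.79 with all samples and -2.09 without S310F replicate 3. It was -1.61 without S310F replicate 1 and -1.57 without S310F replicate 2.

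All 7 genes lay lower in S310F cells, with no S310F value reaching the lowest EV value. Group means in S310F cells ranged from 24.7% of the EV mean for SAA4 to 47.5% for CCL2, and from 19.5% to 42.4% for the same genes over S310F replicates 1 and 2. By limma on log2(value + 1), at a Benjamini-Hochberg adjusted p under 0.05 and a log2 difference of -1 or lower, 7 of 7 were called lower, against 61.7% of the 107 listed genes. The groups did not overlap, with S310F lower, for 7 of 7, against 61.7% of the listed genes. As the same contrast selected the table, nothing is read from either count. The median log2 difference of the 7 was -1.79, beside -1.39 for the 66 genes listed as lower and -1.12 for all listed genes. Without S310F replicate 3 these medians were -2.09, -1.56 and -1.23.

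**Figure D1:**
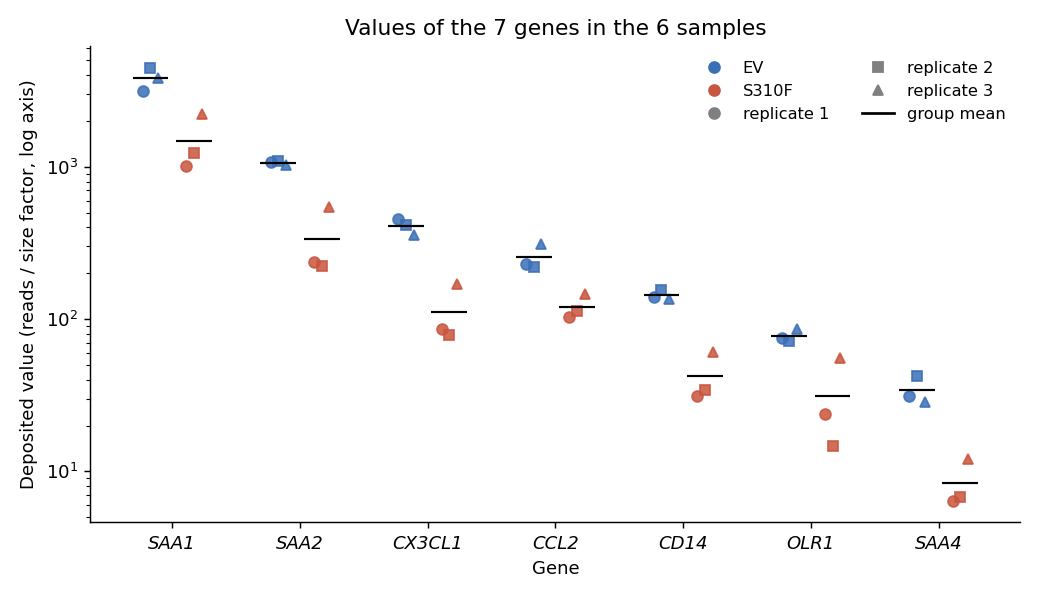
Deposited value (read count over size factor, log axis) of the 7 genes in each sample. Blue marks are EV and red marks S310F samples, the mark's shape gives the replicate number and lines are group means. No red mark reaches the lowest blue mark of its gene, and the triangle of S310F replicate 3 is the highest red mark for each gene.

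SAA1 and SAA2 encode the acute-phase forms of serum amyloid A, and SAA4 the form that the liver makes constitutively. The 3 genes lie together on chromosome 11 (GRCh38). SAA1 spans chr11:18266174-18269977 on the plus strand, SAA2 spans chr11:18239223-18248643 on the minus strand and SAA4 spans chr11:18231349-18236893 on the minus strand. SAA2 and SAA4 are 2.33 kb apart, SAA1 lies a further 17.5 kb away, and the cluster covers 38.6 kb. A readthrough gene, SAA2-SAA4, joins exons of both minus-strand genes.

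The coding sequences of SAA1 and SAA2 are close copies. Both are 369 bases long, encode 122 residues and differ at 11 positions (97.0% identical). Bases 24 to 323, counted from the A of the start codon, are printed 5′ to 3′ from GENCODE transcripts, with the differing bases in capitals. They hold all 11 differences.
SAA1: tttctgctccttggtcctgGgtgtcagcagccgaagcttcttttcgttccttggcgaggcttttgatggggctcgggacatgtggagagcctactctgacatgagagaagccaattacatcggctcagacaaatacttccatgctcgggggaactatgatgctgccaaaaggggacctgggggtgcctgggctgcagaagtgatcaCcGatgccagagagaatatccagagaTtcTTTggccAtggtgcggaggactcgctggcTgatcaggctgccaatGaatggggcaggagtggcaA
SAA2: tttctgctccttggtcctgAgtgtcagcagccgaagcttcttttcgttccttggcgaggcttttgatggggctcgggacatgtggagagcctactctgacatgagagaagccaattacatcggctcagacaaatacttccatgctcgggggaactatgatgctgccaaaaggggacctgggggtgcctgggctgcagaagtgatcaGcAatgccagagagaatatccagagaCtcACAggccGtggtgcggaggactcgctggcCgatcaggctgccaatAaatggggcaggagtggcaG
The longest stretch without a difference ran for 186 bases, from position 44 to 229, and the differences lay mostly downstream of it. A read that falls wholly inside that stretch cannot be assigned to either gene. SAA4, with 393 coding bases, shared 73.7% of its aligned bases with SAA1 and likewise with SAA2, and its alignment held 24 gap bases.

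The read length was not given in the sources used here, so shared sequence was measured for windows of several lengths. Of all 50-base windows of SAA1 transcripts, 46.6% occurred exactly in SAA2 transcripts. That share was 28.5% for windows of 100 bases and 13.2% for 150 bases. SAA2 has longer annotated transcripts, and 17.9%, 11.2% and 5.33% of its windows at these lengths occurred in SAA1. For SAA4, the overlap was with the readthrough gene, which held 63.4%, 60.5% and 57.1% of its windows and 65.5% of its exon bases (476 of 727). The readthrough gene also held 9.82%, 7.76% and 5.61% of SAA2 windows and 19.4%, 10.1% and 4.29% of SAA1 windows. Counting every other gene, 20.3%, 15.0% and 9.21% of SAA2 windows were shared. How the counting treated such reads was not given, so values of SAA1, SAA2 and SAA4 are uncertain to that extent. The windows of CX3CL1, CCL2 and CD14 occurred in no other gene, and for OLR1 0.188% of 50-base windows did.

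SAA1 had values of 3155, 4487 and 3831 in EV cells and 1011, 1226 and 2211 in S310F cells. The S310F samples were all lower, and replicate 3 lay nearest to EV. The means were 3824 ± 666 and 1483 ± 640 (SD, n = 3), a log2 difference of -1.43 (SE 0.317), and -1.76 (SE 0.206) without S310F replicate 3. SAA1 alone made up 61.1% to 72.2% of the summed values of the 7 genes in a sample.

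SAA2 had values of 1080, 1090 and 1034 in EV cells and 238, 225 and 544 in S310F cells. The EV samples were almost alike, while S310F replicate 3 lay at more than both other S310F samples together. The coefficient of variation in EV cells was 2.81%, about the 3.06% that counting reads gives, whereas in S310F cells it was 53.8%, against 5.52% from counting. The EV spread was wider than counting gives for SAA1 (17.4% against 1.61%), CX3CL1 (12.0% against 4.95%) and CCL2 (20.0% against 6.27%). It lay nearer to counting for SAA4 (21.3% against 17.1%) and OLR1 (9.42% against 11.3%). The means of 1068 ± 30.0 and 336 ± 180 gave a log2 difference of -1.79 (SE 0.340), and -2.20 (SE 0.141) without S310F replicate 3.

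SAA4 was much lower in level, with values of 31.2, 42.4 and 28.8 in EV cells and 6.44, 6.84 and 12.0 in S310F cells. These rest on 31, 44 and 28 reads in EV and 7, 7 and 11 reads in S310F cells, and the groups did not overlap. The means were 34.1 ± 7.26 and 8.44 ± 3.12, a log2 difference of -1.92 (SE 0.285), and -2.18 (SE 0.206) without S310F replicate 3. Counting alone gives a coefficient of variation of 34.6% at the S310F level, close to the 37.0% observed. Since most of its exon sequence also belongs to SAA2-SAA4, how many of these reads come from the readthrough transcript was not tested.

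The division of reads between SAA1 and SAA2 overlapped between the groups, through S310F replicate 3 only. SAA1 took 74.5% (95% Wilson interval 73.1 to 75.8), 80.5% (79.4 to 81.5) and 78.7% (77.6 to 79.9) of the SAA1 plus SAA2 reads in EV cells. In S310F cells it took 80.9% (78.8 to 82.9), 84.5% (82.6 to 86.3) and 80.3% (78.7 to 81.8). These intervals cover counting error only. Group means were 77.9% ± 3.07 and 81.9% ± 2.28 (SD, n = 3), and the lowest share was that of EV replicate 1. Without S310F replicate 3 the S310F mean was 82.7%, and both remaining shares (80.9% and 84.5%) lay above the highest EV share (80.5%). The interval of S310F replicate 1 still overlapped that of EV replicate 2. SAA1 exceeded SAA2 in reads by a ratio of 3.58 ± 0.609 in EV and 4.59 ± 0.754 in S310F cells (4.85 over replicates 1 and 2). The SAA1 to SAA4 read ratio was 101 to 133 in EV and 157 to 184 in S310F cells, and these ranges did not overlap. In S310F cells it divides by only 7, 7 and 11 SAA4 reads. No counting error is given for it, so whether it differs between the groups was not tested. The SAA2 to SAA4 read ratio was 25.7 to 35.9 in EV and 32.9 to 45.2 in S310F cells, ranges that overlapped.

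Among the chemokine genes, CX3CL1 encodes fractalkine, a membrane-anchored chemokine that can be shed and that binds CX3CR1 on monocytes, natural killer cells and T cells. It lies at chr16:57372458-57385048 on the plus strand. Its values were 452, 415 and 356 in EV cells and 86.4, 79.2 and 171 in S310F cells. S310F replicates 1 and 2 were near each other, and replicate 3 was more than 2 times (2.06) their mean, though still 48.0% of the lowest EV value. The means were 408 ± 48.8 and 112 ± 50.9, and the log2 difference was -1.93 (SE 0.313), with rank 6 from the lowest among the 107 genes. It lay within its standard error of that of SAA4, which was larger in size under 5 of 12 alternatives. Without S310F replicate 3 it was -2.28 (SE 0.169).

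CCL2 encodes MCP-1, the secreted ligand of CCR2 that recruits monocytes, and lies at chr17:34255218-34257203 on the plus strand. Its values were 231, 221 and 313 in EV cells and 104, 112 and 147 in S310F cells. It differed least of the 7, and EV replicate 3 was its highest sample. The means were 255 ± 50.9 and 121 ± 22.6, with a log2 difference of -1.07 (SE 0.244), rank 59 of the 107 genes. This lies just beyond 1 in size. The study set its limit of 1 on its own log2 fold change, a different measure that was not used here. Genes just outside the study's limit were not analyzed here. The log2 difference was -1.21 (SE 0.202) without S310F replicate 3. It was smaller than 1 in size without EV replicate 3 (-0.91) and without S310F replicate 1 (-0.97).

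Among the innate receptor genes, CD14 encodes the co-receptor that hands lipopolysaccharide to the complex of TLR4 and MD-2. It is best known from monocytes, and epithelial cells can express it at a low level. The gene lies at chr5:140631728-140633701 on the minus strand. CD14 had values of 140, 155 and 135 in EV cells and 31.3, 34.2 and 61.3 in S310F cells. The groups were well apart, the highest S310F value being 45.5% of the lowest EV value. The means were 143 ± 10.6 and 42.3 ± 16.5, a log2 difference of -1.80 (SE 0.283), and -2.09 (SE 0.152) without S310F replicate 3. The EV samples varied by 7.43%, no more than the 8.34% that counting gives.

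OLR1 encodes LOX-1, a C-type lectin-like scavenger receptor for oxidized low-density lipoprotein, and lies at chr12:10158301-10172138 on the minus strand. Its values were 75.5, 72.3 and 86.3 in EV cells and 23.9, 14.7 and 55.8 in S310F cells. It had the widest spread of the 7 in S310F cells, with a coefficient of variation of 68.6%, against 18.1% from counting. S310F replicate 3 reached 71.5% of the EV mean, while replicates 1 and 2 averaged 24.7% of it. The means were 78.0 ± 7.35 and 31.5 ± 21.6, with a log2 difference of -1.49 (SE 0.420). The difference was -2.00 (SE 0.234) without S310F replicate 3 and -1.07 without S310F replicate 2.

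**Figure D2:**
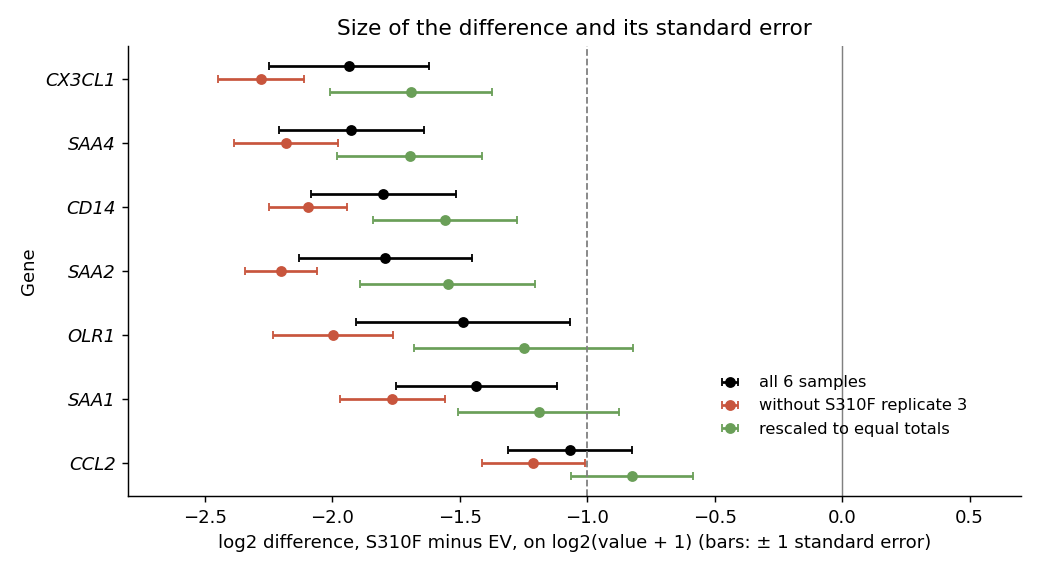
Log2 difference of each gene, S310F minus EV on log2(value + 1), with bars of ± 1 standard error from limma. Black points use all 6 samples, red points leave out S310F replicate 3, and green points use values rescaled to equal totals over the other listed genes; the dashed line marks -1. Every point lies below 0, red points lie furthest left, and for CCL2 the rescaled point (-0.82) lies to the right of the dashed line.

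As an alternative scaling, each sample was brought to equal totals over the listed genes, leaving out ERBB2 and the 7 genes. These genes were selected for differing. Their summed values were 19796, 20138 and 20072 in EV cells and 16588, 17213 and 16834 in S310F cells. The construction itself therefore raises S310F values. It moved the listed genes alike by a median of 0.24 on the log2 scale, and it does not show which scaling is right. The log2 differences were then -1.19 for SAA1, -1.55 for SAA2, -1.70 for SAA4, -1.69 for CX3CL1, -1.56 for CD14, -1.25 for OLR1 and -0.82 for CCL2. All 7 stayed below 0, and 6 were called lower, against 42.1% of the listed genes. Over the 107 genes, 66 were called lower and 37 higher as deposited, and 45 lower and 41 higher after rescaling.

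Levels of different genes were compared per kb of gene length as the table gives it. That length equals all annotated exon bases, 796 for SAA1 and 2227 for SAA2, though both coding sequences have 369 bases. The gap between SAA1 and SAA2 per kb therefore depends on the annotation, and their mean ratio in reads was 3.58 in EV cells. In EV cells, SAA1 stood far above the others at 4804 ± 837 per kb, followed by SAA2 at 480 ± 13.5 and CCL2 at 128 ± 25.6 (SD, n = 3). CD14 followed at 75.9 ± 5.64, CX3CL1 at 68.1 ± 8.15, SAA4 at 46.9 ± 9.99 and OLR1 at 25.5 ± 2.41. Of neighbors in that order, the sample ranges of CD14 and CX3CL1 overlapped and all others were separate. In S310F cells the order by mean was the same, running from 1863 ± 803 per kb for SAA1 through 151 ± 81.0 for SAA2 and 60.9 ± 11.4 for CCL2 to 10.3 ± 7.06 for OLR1. There CD14 (22.4 ± 8.77), CX3CL1 (18.7 ± 8.51) and SAA4 (11.6 ± 4.30) each overlapped with the next in the order. Over S310F replicates 1 and 2 alone the order was the same, from 1405 per kb for SAA1 to 6.31 for OLR1, and no neighbors overlapped. The summed values of the 7 genes were 5165, 6482 and 5783 in EV cells and 1501, 1698 and 3201 in S310F cells.

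Within the S310F group, the 7 genes shared their highest sample but not their lowest. The lowest was replicate 1 for 4 genes and replicate 2 for 3. Each of the 7 had its highest S310F value in replicate 3, 7 of 7, against 53.3% of the 107 genes. As the table was chosen on these samples, the count is a description. Among the other 59 genes listed as lower, 46 (78.0%) were highest in that sample, and among the 41 listed as higher, 4 were. The ratio of replicate 3 to the mean of replicates 1 and 2 had a median of 1.98 over the 7 genes, from 1.36 for CCL2 to 2.89 for OLR1. The ratio for OLR1 was the highest of the 107 genes. For the other genes listed as lower the median ratio was 1.44, and for those listed as higher it was 0.778.

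**Figure D3:**
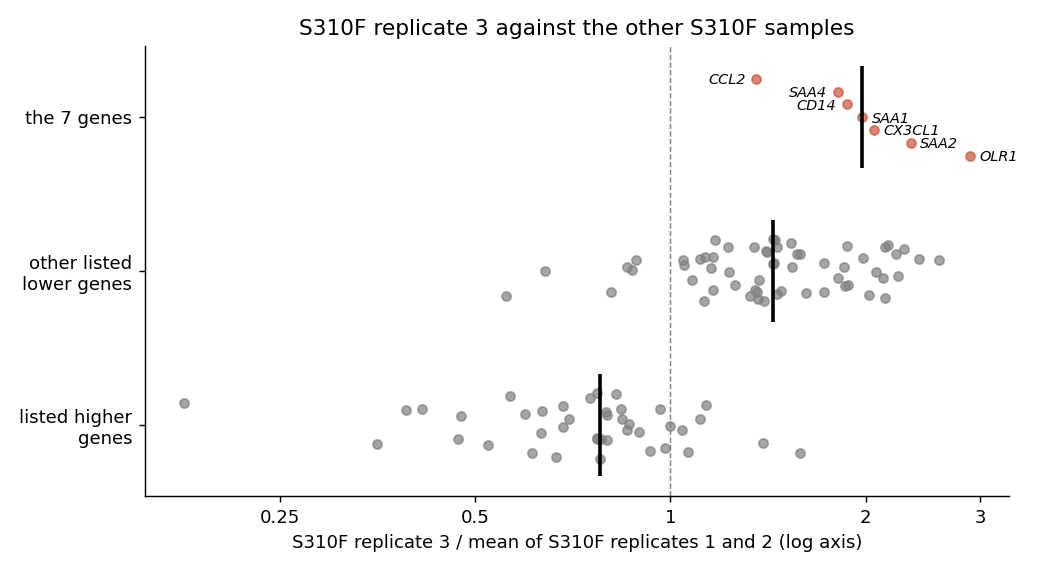
Ratio of the value in S310F replicate 3 to the mean of S310F replicates 1 and 2 (log axis), for the 7 genes, the other 59 genes listed as lower and the 41 listed as higher. Each point is a gene and vertical lines are medians (1.98, 1.44 and 0.778). All 7 genes lie to the right of 1, and most genes listed as higher lie to its left.

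No such order was seen in the EV group. The highest EV value was in replicate 1 for 1 gene, in replicate 2 for 4 and in replicate 3 for 2. Values over the gene's EV mean ran from 0.825 to 1.24, while in S310F replicate 3 they ran from 1.21 for CCL2 to 1.77 for OLR1 times the S310F mean. No correlation over the 6 samples is given, because the samples form separate groups. Whether replicate 3 differed in culture, RNA or library was not tested.

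Outside the 7, the listed genes with the most similar profile were CPE, KRT17, CYP4X1, QPRT and DTX4. Likeness was the root mean square distance of log2(value + 1), centered on each gene's mean, to the mean profile of the 7 over the 6 samples. The distance covers both groups, so it takes in the size of the group difference as well as variation within a group. CPE, which encodes carboxypeptidase E, was nearest at 0.0968, closer than any of the 7 genes itself. Its values were 360, 436 and 437 in EV cells and 101, 106 and 232 in S310F cells, so replicate 3 was again the highest S310F sample. KRT17, a keratin gene, followed at 0.126, with values of 313, 400 and 383 in EV cells and 108, 94.8 and 217 in S310F cells. CYP4X1, a cytochrome P450 gene, lay at 0.146, QPRT, which encodes an enzyme of NAD synthesis from quinolinate, at 0.155, and DTX4, an E3 ubiquitin ligase gene, at 0.167. Among the 7, CD14 (0.108) and SAA2 (0.120) lay nearest to their common mean and CCL2 (0.380) farthest. Without S310F replicate 3, 4 of the 5 nearest genes were the same, with CPE (0.0808) again the first, and QPRT gave way to CDH11 (0.125), a cadherin gene.

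Few other genes of the pathway were in the table. The 3 SAA genes were the only ones present of a list of 23 acute-phase genes. That list counts SAA4, the constitutive form, and leaves out LRG1, which is described below. CCL2 and CX3CL1 were the only ones of 38 chemokine genes, and CD14 and OLR1 the only ones of 30 innate receptor genes. All of these were called lower. None of 25 receptors for chemokines or serum amyloid A, 20 cytokine genes or 21 genes of NF-κB components and feedback was in the table. Nor was any of 12 regulators of the acute-phase response. Genes outside the table were not analyzed here.

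Promoter windows, from 250 bases before to 50 bases after the RefSeq start, were at hand for 2 of the 7 genes, CD14 and SAA4. They were searched on both strands for motifs of factors that act on such genes, and the share of all 35116 promoter windows with a match is given beside each. A C/EBP motif (TTNNGNAA) was in both, and in 36.8% of all windows. An AP-1 motif (TGANTCA) was in CD14 and in 7.71% of all windows, and a STAT motif (TTCNNNGAA) was in CD14 and in 7.66%. In CD14 these were TGAGTCA at positions -223 to -217, TTCCAGGAA at -123 to -115 and, for C/EBP, TTACATAA at -33 to -26, counted from the RefSeq start. All of that stretch lies within a longer CD14 transcript of GENCODE.

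SAA4 had 6 matches to the C/EBP motif between -236 and -47. The share of all windows with that many matches was not computed. The part of its window upstream of the GENCODE gene, from -250 to -92 (chr11:18236894-18237052, minus strand, GRCh38.p14, RefSeq), is shown 5′ to 3′ because it holds 4 of these matches, which are in capitals.
SAA4: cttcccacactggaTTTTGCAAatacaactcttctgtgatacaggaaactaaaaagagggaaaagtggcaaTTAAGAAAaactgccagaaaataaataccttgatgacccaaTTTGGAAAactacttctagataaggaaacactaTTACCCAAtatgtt
Neither window held a match to the κB motif (11.3% of all windows), to the IRF motif of GAAA, any 2 bases and GAAA (3.57%), to the TATA box TATAAA (11.5%) or to the GC box GGGCGG (45.0%). The matches are descriptions of the sequence. Binding was not measured, and the absence of a match says only that these letters are not in the window.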

How the data were processed

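RNA extracted with TRNzol was made into libraries with the Fast RNA-seq Lib Prep Kit V2 and sequenced by Novogene from H1975 EV and S310F cells, 3 samples each. The deposited signal is reads per gene, corrected by the authors for library size with 1 factor per sample. To a tolerance of 0.0001, 100% of values in a sample were whole multiples of 1 step. Aligner, counter, strand setting and read length are not given in the sources used here, and the build is GRCh38 (hg38) per the submitters' processing notes. Coordinates of 107 of 107 genes equaled those of GENCODE release 29. The deposited table also holds the authors' group means and their own comparison (log2 fold changes with p-values, raw and adjusted), which were not used. The study gives limits of 1 on the log2 fold change and 0.05 on P for its genes.

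The 7 genes and all gene lists and motifs were chosen with earlier results of these data known. Differences and standard errors came from limma 3.58.1 (R 4.3.3) on log2(value + 1) over all 107 genes, with 2 groups, moderated variances and no filter. The fit had been tested on simulated data in which most genes were unchanged. That test does not cover a table of genes selected for differing. Genes were called at a Benjamini-Hochberg adjusted p under 0.05 and a log2 difference of at least 1 in size. Genes named were ERBB2, the 7 genes, listed genes of the gene lists and the 5 nearest profiles. Exon overlap, shared windows and coding sequences were computed from GENCODE in Python 3.11.15, and promoters came from RefSeq (GRCh38.p14). Alternatives were pseudocounts of 0.1 and 10, filters on a mean value of 10 or 50, leaving out each sample in turn, rescaling, a mean-variance trend and a replicate block.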

Additional observations from a re-analysis of the deposited data

How the results depend on the processing

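All 7 genes stayed lower in S310F cells under each of the 13 alternatives in which they were tested (12 for SAA4). The filters, the mean-variance trend and the replicate block leave each log2 difference unchanged by construction. Only the other alternatives could have changed its direction. The median log2 difference of the 7 was -1.79 and ranged from -2.09 to -1.57 when 1 sample was left out. It was -1.43 with a pseudocount of 10, which shrinks low genes by construction and took SAA4 to -1.26. CCL2 was no longer called without EV replicate 3 (-0.91), without S310F replicate 1 (-0.97) or after rescaling (-0.82). Rescaling to equal totals reduced the listed genes called lower from 66 to 45 and raised those called higher from 37 to 41, so that the share of lower calls went from 64.1% to 52.3%. This follows from its construction, a near-uniform shift of 0.24 over genes selected for differing. Dropping genes with a mean below 10 removed none. Dropping those below 50 kept 75 genes and left out SAA4, and 6 of 6 of the others were called, against 62.7% of those tested. Divided by gene length, the mean share of SAA1 in the SAA1 plus SAA2 values was 90.8% in EV and 92.7% in S310F cells. Undivided, it was 77.9% and 81.9%, and the rise follows from the longer annotated exon length of SAA2.

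With the replicate number as a replicate block, 7 of the 7 genes and 66 listed genes were called lower. The median stayed at -1.79, as it had to, because a block cannot change the differences in this balanced design. Deviations of samples with the same number correlated at 0.0567, 0.0171 and -0.0244 across the 107 genes, so the numbers were not taken to pair the samples. The mean-variance trend changed no call among the 7. Depth limits SAA4 most, with 7 to 11 reads in S310F cells.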

Other observations

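LRG1, which encodes leucine-rich alpha-2-glycoprotein, a plasma protein of the acute-phase response, was among the listed genes but not on the acute-phase list, and was singled out after its values were seen. Its values were 156, 116 and 134 in EV cells and 56.1, 42.0 and 90.8 in S310F cells, with means of 135 ± 20.3 and 63.0 ± 25.1 (SD, n = 3). The groups did not overlap, and S310F replicate 3 was again the highest S310F sample, at 1.85 times the mean of the other two. The authors' selection of the table used the same contrast, so these values are a description.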
